A study of Homo sapiens with 44 samples.

Results

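Interferon regulatory factors (IRFs) are transcription factors, and the regions of open chromatin assigned to 8 of their genes (IRF1, IRF2, IRF3, IRF4, IRF5, IRF7, IRF8 and IRF9) were followed in fibroblasts given single cytokines. The members were all peaks whose deposited annotation names one of these genes, 213 peaks of 407383 in all, each 500 bases wide. IRF1 had 76 peaks, IRF2 44, IRF8 31, IRF4 30, IRF7 14, IRF5 13, IRF9 4 and IRF3 1. Accessibility was measured by ATAC-seq, in which a transposase cuts open DNA and inserts sequencing adaptors, in Ccd18-Co, an established fibroblast line from human colon. The 44 libraries made 11 groups of 4. One group was unstimulated, and each of the others had received 1 cytokine for a day after serum starvation: IFNγ, IFNα, TNF, oncostatin M (OSM), TGF-β1, IL-22, IL-17A, IL-13 or IL-6 at 10 ng/ml, or IL-1β at 0.1 ng/ml. All groups came from the same cell line, and nothing in the labels says that replicates were separate cultures, so p-values measure the spread between these libraries. These are bulk libraries, so a change in the share of cells with an open region and a change in how open it is per cell cannot be told apart.

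The IRF proteins bind interferon-stimulated response elements (ISREs), short DNA stretches in the control regions of interferon-induced genes. IFNα signals through a complex that contains IRF9 and binds ISREs, and IFNγ signals to gamma-activated sites (GAS), one of which lies in the IRF1 promoter. IRF1 is an activator that rises with IFNγ, IRF2 competes with it for the same elements, IRF3 and IRF7 are switched on by kinases below sensors of foreign nucleic acid, IRF5 acts below Toll-like receptors, and IRF4 and IRF8 are best known from lymphocytes and myeloid cells.

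Sequences from hg38 (forward strand) are shown for windows of changed peaks that held matches to short motifs, with the matches in capitals. A match on the reverse strand appears as its reverse complement. The motifs searched on both strands were ISRE (GAAANNGAAA), GAS (TTCNNNGAA), the wider spacing favoured by STAT6, the factor activated by IL-13 (TTCNNNNGAA), and κB, the site of NF-κB (GGANNTTCC). A match describes the letters and was not tested as a binding site. Not every changed peak with a match is printed, and some changed peaks held none of these matches. Those without a match include the IRF1 peaks at 132480908, 132478191 and 132495722. They also include the IRF7 peak at 611113 and the IRF5 peak at 128995793. The IRF1 promoter window holds a GAS match, and a window further upstream holds an ISRE match followed by κB and GAS matches that overlap each other.
IRF1 promoter, chr5:132490849-132490937: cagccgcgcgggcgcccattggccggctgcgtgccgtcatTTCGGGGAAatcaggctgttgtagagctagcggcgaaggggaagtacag
IRF1 upstream, ISRE, κB and GAS, chr5:132496985-132497118: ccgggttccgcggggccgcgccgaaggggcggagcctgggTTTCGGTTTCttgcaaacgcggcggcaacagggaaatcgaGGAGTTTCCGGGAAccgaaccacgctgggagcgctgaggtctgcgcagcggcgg
IRF1 upstream, κB, chr5:132498323-132498411: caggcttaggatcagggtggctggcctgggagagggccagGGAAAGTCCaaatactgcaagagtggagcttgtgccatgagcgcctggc
IRF1 downstream, κB, chr5:132475508-132475635: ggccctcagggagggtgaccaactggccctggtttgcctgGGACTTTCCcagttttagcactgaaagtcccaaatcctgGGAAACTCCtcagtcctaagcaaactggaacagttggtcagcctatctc
IRF9 start, GAS, chr14:24161192-24161220: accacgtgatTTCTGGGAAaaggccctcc
IRF8 upstream, overlapping GAS and ISRE, chr16:85889132-85889227: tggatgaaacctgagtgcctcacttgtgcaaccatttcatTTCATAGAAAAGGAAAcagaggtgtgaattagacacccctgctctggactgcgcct
IRF2 start, GAS and ISRE, chr4:184474742-184474847: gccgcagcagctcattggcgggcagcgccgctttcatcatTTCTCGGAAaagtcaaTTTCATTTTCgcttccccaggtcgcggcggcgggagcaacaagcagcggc
IRF2 upstream, ISRE, chr4:184534754-184534843: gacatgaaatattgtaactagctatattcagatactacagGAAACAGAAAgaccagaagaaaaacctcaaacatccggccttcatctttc
IRF2 upstream, STAT6 spacing, chr4:184547467-184547556: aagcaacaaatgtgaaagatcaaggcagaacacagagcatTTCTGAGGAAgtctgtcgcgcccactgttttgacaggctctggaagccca

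Levels are given as coverage per Mb, the bases of aligned reads over a peak for each Mb of such bases over all peaks, after a correction for library composition. Library totals ran from 148.8 to 823.1 Mb, and 3 reads correspond to a level between 0.274 and 1.52 per Mb depending on the library. Changes are log2 differences of coverage per Mb with 0.5 added, which understates the change of faint peaks. A peak was called when the limma adjusted p over all 407176 tested peaks was under 0.05, and all 213 IRF peaks passed the filter on low coverage. Peaks near the start sites of the 10 fibroblast markers measured lay between 0.992 and 9.13 per Mb in unstimulated cells. Start-site peaks were present for 5 of 10 leukocyte markers (0.92 to 8.34 per Mb) and 6 of 8 epithelial and endothelial markers (0.303 to 4.57 per Mb). The medians were 6.49 per Mb for the fibroblast markers, 2.66 for the leukocyte markers and 0.714 for the epithelial and endothelial ones, with ranges that overlapped. With OSM the median over all tested peaks moved by -0.22 and with TGF-β1 by 0.15, and the changes below are not corrected for these shifts.

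One library stood apart. The library labelled IL-6 replicate 4 was the shallowest of the series, and over the 1309 peaks raised at least 2-fold with IL-13 its median log2 difference from unstimulated cells was 1.09. The other IL-6 libraries had medians of 0.37, 0.49 and 0.46 at these peaks, and the IL-13 libraries had 1.22 to 1.36. Results without this library are therefore given for the IL-6 calls at IRF peaks and for the IL-6 and IL-13 difference at an IRF2 peak. Other IL-6 values, among them group means and shares over all tested peaks, include it.

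With IFNγ 41 of the 213 IRF peaks were called (19.2%), 40 raised and 1 lowered, against 1.75% of all tested peaks (1.48% raised and 0.275% lowered). IRF1, an activator, held 33 of the raised peaks, IRF2 and IRF8 held 3 each and IRF9 held 1. IFNα called 9 IRF peaks (4.23%, all raised) against 0.847% of all tested peaks (0.513% raised and 0.334% lowered), with 6 at IRF1, 2 assigned to IRF7 and 1 at IRF9. Leaving out any 1 of the 8 libraries compared gave 5 to 7 IFNα calls, the 5 without unstimulated replicate 3. TNF called 7 (3.29%, all raised) against 4.36% (2.67% raised and 1.69% lowered), and 4 without unstimulated replicate 2 or 3 or TNF replicate 2. IL-1β called 5 (2.35%, 4 raised and 1 lowered) against 3.5% (1.72% raised and 1.79% lowered), and 3 without unstimulated replicate 1 or IL-1β replicate 4. For these cytokines the share at IRF genes was near or below the background. TGF-β1 called 6 (2 raised and 4 lowered) against 3.5% (1.98% raised and 1.52% lowered), and 2 raised and 2 lowered with loess offsets, which remove shifts that vary with the level of a peak. The raised share of all TGF-β1 calls also depended on the scaling, at 56.6% here, 28.0% with a composition factor over all peaks and 29.0% after centring on GC content. IL-13 called 3 (2 raised and 1 lowered) against 1.61% (0.73% raised and 0.88% lowered). OSM called 4 (1 raised and 3 lowered) against 2.84% (1.55% raised and 1.29% lowered), and this split depended on the scaling, with 7 raised and 1 lowered when the composition factor was taken over all peaks and 8 raised and 0 lowered after centring on GC content. Without 1 library OSM called 0 to 3, with 0 when unstimulated replicate 4 or OSM replicate 3 was left out. IL-6 called 1 raised peak against 0.107% (0.0427% raised and 0.0643% lowered), and 0 when the doubtful library or unstimulated replicate 3 was left out. IL-17A had 0 called IRF peaks by limma (16 at an unadjusted p under 0.05) against 0.0398% of all tested peaks (0.0329% raised and 0.00688% lowered). IL-22 had 0 as well (15 at an unadjusted p under 0.05) against 0.0361% (0.0339% raised and 0.00221% lowered). These shares are of adjusted calls. At an unadjusted limma p under 0.05 there were 26247 of the 407176 tested peaks with IL-17A and 29094 with IL-22, the background for the 16 and 15. The median change over the 213 peaks was 0.21 with IFNγ, 0.11 with IFNα and -0.25 with OSM, where the medians over all tested peaks were -0.01, 0.01 and -0.22.

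**Figure D1:**
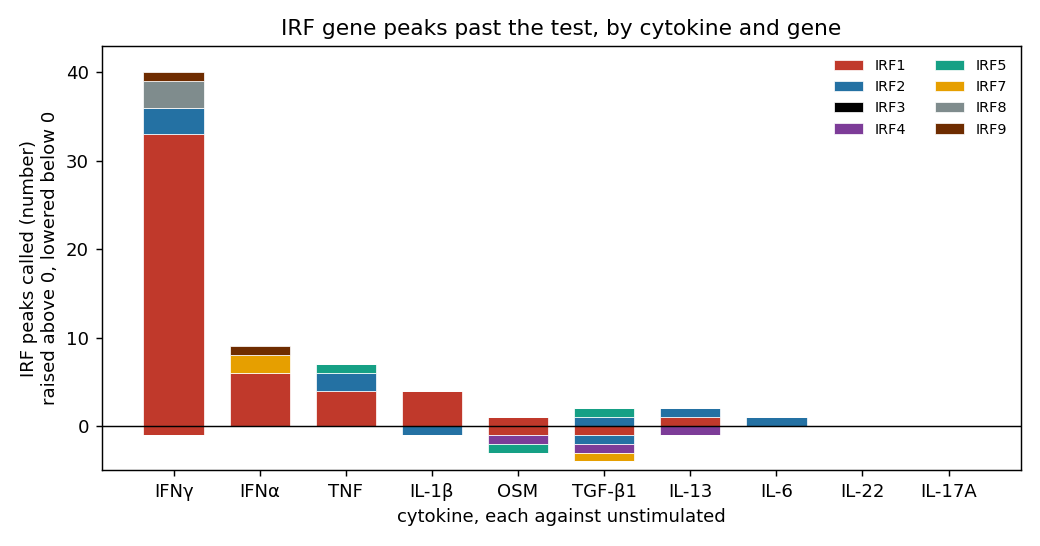
Number of IRF peaks called against unstimulated cells (limma adjusted p under 0.05) for each cytokine, raised peaks above 0 and lowered peaks below it, coloured by gene. IFNγ stands far above the rest with 40 raised peaks, 33 of them at IRF1.

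The IRF1 gene (chr5, reverse strand, RefSeq start 132490773) showed the broadest change of the family. With IFNγ, 22 consecutive peaks from 132474714 to 132489828, a stretch of 15.1 kb that covers the gene body and reaches past its end, were all raised. Of these peaks 12 lay inside the RefSeq gene and 10 downstream, where GENCODE places introns of longer IRF1 transcripts, of IRF1-AS1 and of ENSG00000283782. The assay carries no strand, so which of these overlapping genes a peak belongs to cannot be told apart. The log2 changes ran from 1.64 to 4.16 with a median of 2.81, and the highest adjusted p among them was 0.000109. The stretch was picked out after its values were seen.

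Summed over the 22 peaks, coverage was 18.4, 24.4, 30.1 and 26.2 per Mb in the unstimulated libraries and 284, 276, 295 and 266 per Mb in the IFNγ libraries. The means were 24.8 ± 4.88 and 280 ± 12.2 (SD, n = 4), a ratio of 11.3. The IFNα libraries had 42.1, 41.0, 51.2 and 45.1 per Mb, a mean of 44.9 ± 4.59. Every IFNα library was above every unstimulated one, yet far below every IFNγ one, and 3 of the 22 peaks were called with IFNα. All 22 were higher with IFNγ than with IFNα in the direct comparison of these groups. Because the stretch was chosen by its IFNγ calls, the ratio and these comparisons describe it and are not separate support. Over all 213 IRF peaks that comparison called 27 peaks, 26 of them higher with IFNγ, against 1.17% of all tested peaks. Those 26 include the 22 peaks of the stretch. Among all tested peaks 4784 were called, 3573 of them higher with IFNγ. TNF gave a sum of 35.3 ± 4.75 per Mb and IL-1β 30.5 ± 3.0, and IL-22 (19.7 ± 2.67) and OSM (20.5 ± 2.59) were at the low end.

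The largest change was 9615 bases past the start, just beyond the end of the RefSeq gene (chr5:132480908-132481408). It measured 1.02, 1.97, 2.36 and 2.54 per Mb in unstimulated libraries, 5.6, 4.03, 6.97 and 4.54 with IFNα and 41.8, 41.2, 45.1 and 41.5 with IFNγ. The groups did not overlap. The log2 change was 4.16 ± 0.29 (SE) with IFNγ (limma adjusted p = 1.38e-30) and 1.25 ± 0.29 with IFNα (adjusted p = 0.00605). The other 8 cytokine groups had means between 1.5 and 2.75 per Mb, and none was called. The peak at chr5:132478191-132478691 followed the same order, with 1.08 ± 0.337 per Mb unstimulated, 3.27 ± 0.887 with IFNα and 20.0 ± 2.44 with IFNγ (log2 3.72 ± 0.32, adjusted p = 9.68e-21). Both IFNα calls were lost without some libraries. At the first peak these were unstimulated replicate 1 (adjusted p = 0.093) and IFNα replicate 3 (0.054). At chr5:132478191 they were unstimulated replicates 1 and 3 and IFNα replicates 2, 3 and 4 (0.0515 to 0.128).

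**Figure D2:**
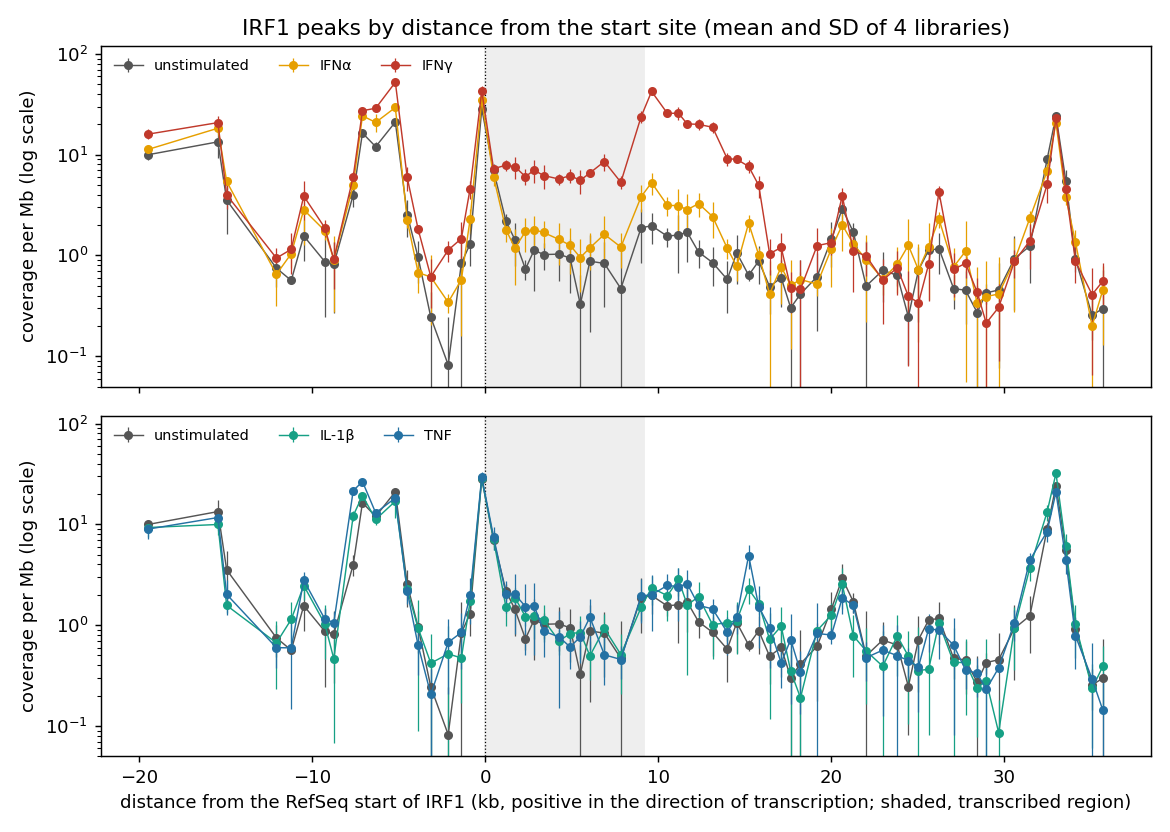
Mean coverage per Mb on a log scale at each IRF1 peak around the gene, by distance in kb from the RefSeq start, with SD bars over 4 libraries that end at the lower axis limit where they would reach 0. The upper panel compares unstimulated, IFNα and IFNγ libraries and the lower one unstimulated, IL-1β and TNF libraries, and the IFNγ line stays above the others across the shaded gene and for several kb beyond its end.

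The start of IRF1 itself changed far less. The peak over the start (chr5:132490727-132491227), the most open IRF1 region with a mean of 31.3 per Mb over all libraries, measured 32.2, 28.8, 27.9 and 24.9 per Mb unstimulated and 38.6, 44.9, 49.3 and 38.3 with IFNγ. The log2 change was 0.58 ± 0.11 (adjusted p = 8.33e-05), and with IFNα it was 0.28 ± 0.11 (adjusted p = 0.309). The GAS match of the promoter window lies in this peak, at -116 bases from the start. The neighbouring peak inside the gene (chr5:132490045-132490545) was not called with IFNγ (0.06 ± 0.20, adjusted p = 0.969) or with IFNα (-0.20 ± 0.20, adjusted p = 0.848).

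Upstream of IRF1 lay a cluster of open peaks that answered different cytokines. The peak at chr5:132495722-132496222, centred at -5199 bases from the start, had 23.2, 21.7, 19.5 and 19.9 per Mb unstimulated and 55.0, 53.0, 52.1 and 49.3 with IFNγ (log2 1.30 ± 0.13, adjusted p = 3.37e-17). TGF-β1 lowered it to 15.0, 13.2, 12.6 and 13.6 per Mb (log2 -0.61 ± 0.13, adjusted p = 0.000257). It is the IRF1 peak that IFNγ raised and TGF-β1 lowered, with no overlap of either group with unstimulated libraries. IFNα gave 0.47 ± 0.13 (adjusted p = 0.0332), a call that was lost in 11 of 21 alternative fits. Those included the fits without unstimulated replicates 2, 3 or 4 and without IFNα replicates 1, 2 or 4 (adjusted p 0.0577 to 0.193).

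The next peak (chr5:132496858-132497358), which holds the ISRE, κB and GAS matches shown above, measured 13.4, 12.0, 12.4 and 10.4 per Mb unstimulated. It had 26.6, 20.8, 16.5 and 19.9 per Mb with IFNα (log2 0.76 ± 0.15, adjusted p = 0.000759) and 32.1, 28.2, 27.5 and 27.9 with IFNγ (1.24 ± 0.15, adjusted p = 4.69e-11). Both interferon groups lay above all unstimulated libraries, and both calls held in all 21 alternative fits. The peak after it (chr5:132497623-132498123) was called with 4 cytokines, as was 1 other IRF peak. Its mean rose from 16.4 ± 1.36 per Mb to 27.3 ± 1.32 with IFNγ (log2 0.72), 26.6 ± 1.67 with TNF (0.68), 24.3 ± 1.65 with IFNα (0.55) and 23.0 ± 0.937 with IL-13 (0.48). Neighbours in that order did not differ from each other past the threshold. The IL-13 call had an adjusted p of 0.0208 and was lost without unstimulated replicate 2 or 4 or IL-13 replicate 1 (0.0689 to 0.0923).

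TNF and IL-1β, both activators of NF-κB, raised the peak beside it. At chr5:132498158-132498658 the libraries had 3.11, 5.1, 3.35 and 4.42 per Mb unstimulated, 21.2, 23.9, 20.4 and 21.0 with TNF and 13.9, 12.5, 10.2 and 12.1 with IL-1β. The 3 groups did not overlap. The log2 change was 2.32 ± 0.22 with TNF (adjusted p = 5.84e-18) and 1.51 ± 0.22 with IL-1β (adjusted p = 3.69e-08), and TNF exceeded IL-1β by 0.81 ± 0.22 (adjusted p = 0.0348). Because the dose of IL-1β was 0.1 ng/ml and that of TNF was 10 ng/ml, agent and dose cannot be told apart in that difference. These doses are those of the sample labels, and elsewhere the study states a lower one for IL-1β. Between IL-1β and TNF 3 IRF peaks were called in all, against 1.32% of all tested peaks, and 1 without IL-1β replicates 2, 3 or 4 or TNF replicates 2 or 3. IFNγ left this peak at 6.04 ± 0.686 per Mb (log2 0.56 ± 0.22, adjusted p = 0.284), below TNF by 1.76 ± 0.22 in the direct comparison (adjusted p = 3.81e-11). The peak has 1 κB match, shown above.

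IFNγ, TNF and IL-1β each raised the peak at chr5:132475297-132475797, 15226 bases past the start and inside the stretch raised by IFNγ. Unstimulated libraries had 0.654, 0.516, 0.68 and 0.693 per Mb, and 2 of them were at or under 3 reads. IFNγ gave 9.23, 7.75, 6.94 and 6.7 (log2 2.84 ± 0.33, adjusted p = 1.66e-12), TNF 4.58, 5.56, 6.3 and 3.21 (2.22 ± 0.33, adjusted p = 2.61e-08) and IL-1β 3.25, 2.09, 1.83 and 1.94 (1.27 ± 0.33, adjusted p = 0.00743). All of these libraries were above all unstimulated ones. The IL-1β call was lost without IL-1β replicate 1 (adjusted p = 0.0614), and IFNγ and TNF did not differ past the threshold (adjusted p = 0.364). IFNα gave 2.1 ± 0.394 per Mb (adjusted p = 0.0449), a call lost in 14 of 21 alternative fits, including those that left out any 1 of the 8 libraries compared (0.0595 to 0.165). This peak holds 3 κB matches, of which the closest pair is shown above.

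Of the 22 raised peaks 4 held a κB match, 1 a GAS match and 0 an ISRE match, where 7.07%, 17.2% and 9.11% of all tested peaks did. Of the 40 IRF peaks raised with IFNγ, 10 (25.0%) held a GAS match and 7 (17.5%) an ISRE match. Of the 7 raised with TNF, 4 (57.1%) held a κB match. The activator protein 1 motif (TGANTCA) was in 16.0% of the IRF peaks and in 25.7% of all tested peaks.

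Further IRF1 changes lay far downstream, over IRF1-AS1. At chr5:132459037-132459537, 31486 bases past the start, TNF raised the mean from 1.24 ± 0.711 to 4.44 ± 0.805 per Mb (log2 1.59 ± 0.33, adjusted p = 0.00023) and IL-1β to 3.72 ± 0.975 (1.35 ± 0.33, adjusted p = 0.00403, and 0.0765 without unstimulated replicate 3). Beside it IFNγ gave the 1 lowered IRF peak of its comparison with unstimulated cells, at chr5:132458039-132458539. It went from 9.07, 8.23, 10.4 and 8.46 per Mb to 4.18, 4.73, 7.6 and 3.73 (log2 -0.82 ± 0.20, adjusted p = 0.00658, and 0.0799 without IFNγ replicate 4). The peak next to it (chr5:132457529-132458029) had 24.3 ± 1.48 per Mb unstimulated, 33.2 ± 1.2 with OSM (log2 0.44 ± 0.12, adjusted p = 0.0135) and 32.2 ± 3.37 with IL-1β (0.40 ± 0.12, adjusted p = 0.0306). The OSM call was lost without unstimulated replicate 4 or OSM replicate 3 (0.0634 and 0.0529) or with loess offsets (0.167). The IL-1β call was lost without any of 6 libraries, unstimulated or IL-1β replicates 1, 2 and 4 (0.0682 to 0.136). It was also lost with the composition factor over all peaks (0.126), GC centring (0.105) and the replicate block with GC centring (0.0966). A faint peak at chr5:132470510-132471010 went from 1.45 ± 0.684 to 0.309 ± 0.23 per Mb with OSM (log2 -1.26 ± 0.38, adjusted p = 0.0378). There 3 OSM libraries were at or under 3 reads, and the call was lost in 9 of 21 alternative fits, among them those without unstimulated replicates 3 or 4 or OSM replicates 1, 3 or 4 (0.0562 to 0.189).

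**Figure D3:**
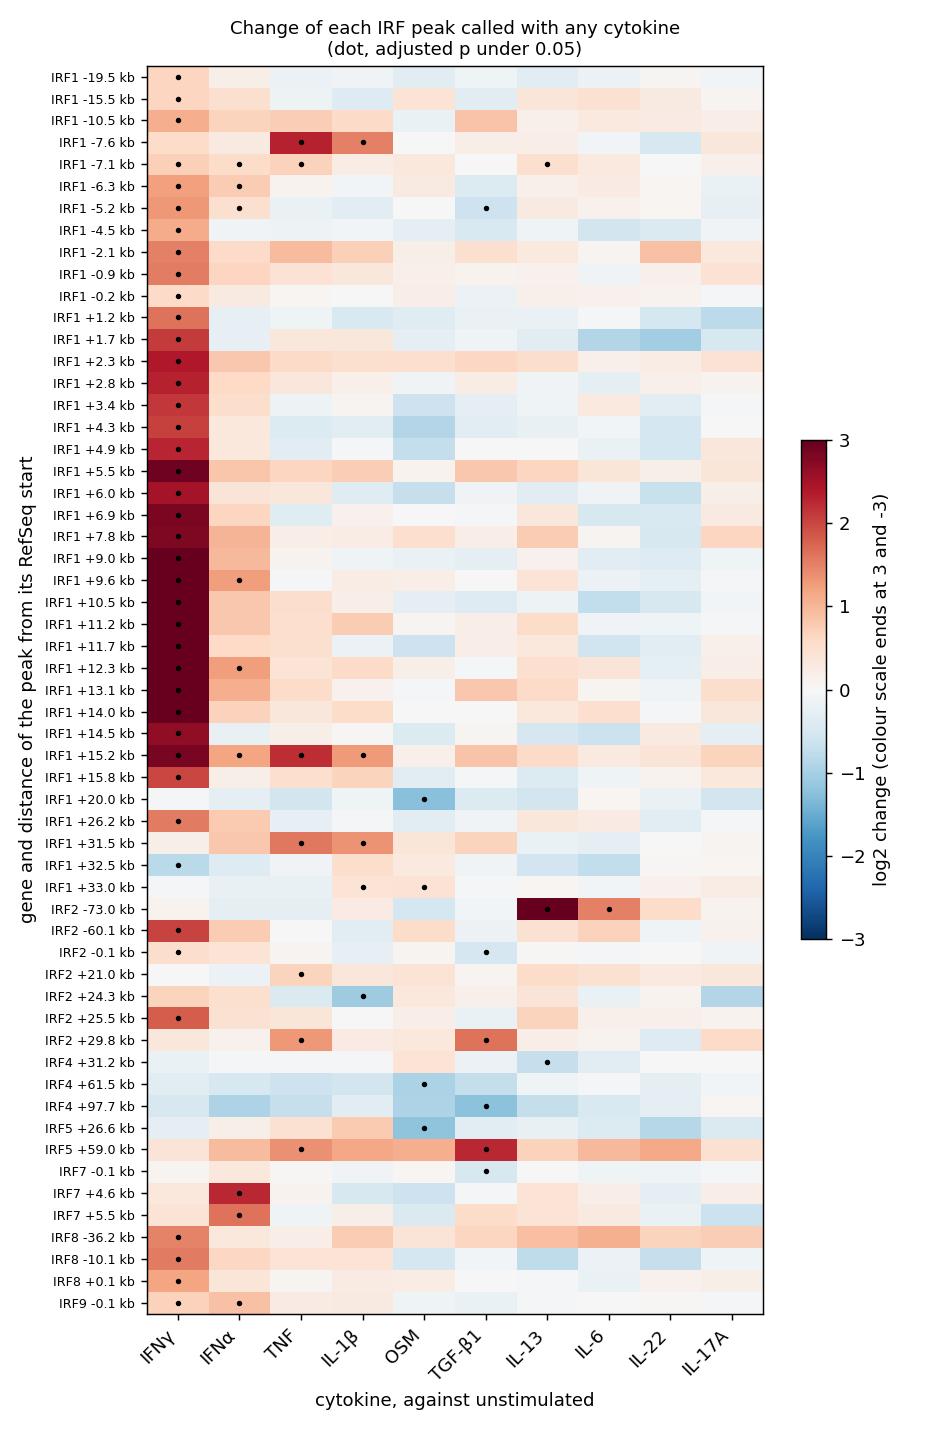
Log2 change of every IRF peak called with at least 1 cytokine (rows, with gene and distance from the RefSeq start) for each cytokine against unstimulated cells (columns), red for raised and blue for lowered, with dots where the adjusted p was under 0.05. The block of dark red in the IFNγ column is the IRF1 stretch. The IRF1 row raised most by TNF lies upstream of the gene, and the IRF2 row raised by IL-13 is the furthest upstream of its gene among those shown.

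IRF9, a DNA-binding part of the complex that IFNα activates, had 4 peaks, of which 1 was called with any cytokine. Over the 4 peaks the median change was 0.58 with IFNα and 0.63 with IFNγ. The peak over its start (chr14:24160922-24161422), which also overlaps an untranslated exon of the readthrough gene ENSG00000259529, measured 13.3, 13.8, 16.3 and 14.1 per Mb unstimulated. With IFNα it had 28.5, 30.4, 21.9 and 28.2 per Mb (log2 0.89 ± 0.14, adjusted p = 5.74e-06) and with IFNγ 23.6, 21.5, 26.5 and 21.6 (0.68 ± 0.14, adjusted p = 0.000738). Both interferon groups were clear of the unstimulated one, and both calls held in all 21 alternative fits. IFNα and IFNγ did not differ past the threshold (adjusted p = 0.714). IL-1β (17.3 ± 1.48 per Mb) and TNF (17.2 ± 2.15) came next in order and were not called against unstimulated libraries. IFNα was above each of the other 8 cytokines in direct comparisons, for example above TGF-β1, the lowest at 12.5 ± 2.28 per Mb, by 1.10 ± 0.14 (adjusted p = 4.23e-10). IFNγ was above 7 of these 8, the exception being IL-1β (adjusted p = 0.0632).

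Among 21649 promoter peaks of other genes, the levels most like those of the IRF9 peak over the 44 libraries were at HLA-B, a class I antigen-presenting molecule (r = 0.831), BST2, an antiviral membrane protein (r = 0.809), and RSAD2, the antiviral enzyme viperin (r = 0.782). These libraries share treatments, so the values are a description of likeness.

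IRF7, a driver of type I interferon production that is itself induced by IFNα, had its 2 peaks called with IFNα past the end of the gene. Over all 14 IRF7 peaks the median change with IFNα was 0.72, where all tested peaks had a median of 0.01. The peak at chr11:611113-611613 lay 4587 bases past the start in an intron of the neighbouring gene PHRF1. It measured 0.303, 1.11, 0.37 and 2.36 per Mb unstimulated, with 2 libraries at or under 3 reads, and 5.61, 5.68, 7.07 and 5.52 with IFNα. No IFNα library overlapped the unstimulated ones. The log2 change was 2.26 ± 0.38 (adjusted p = 1.66e-05) and held in all 21 alternative fits. IFNγ gave 0.636, 1.34, 2.25 and 0.868 per Mb (0.32 ± 0.38, adjusted p = 0.882), and IFNα exceeded IFNγ by 1.94 ± 0.38 (adjusted p = 0.000332) and each of the other 8 cytokines as well. This was the 1 IRF peak of 27 where IFNα was the higher of the 2 interferons.

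A second peak in the same intron (chr11:610171-610671) went from 0.768 ± 0.583 to 3.08 ± 0.361 per Mb with IFNα (log2 1.62 ± 0.40, adjusted p = 0.0129), a call lost without unstimulated replicate 2 or 3 (0.155 and 0.0514). There IFNα and IFNγ did not differ past the threshold (1.21 ± 0.40, adjusted p = 0.125). The most open peak, over the IRF7 start (chr11:615771-616271), had 19.2, 19.5, 24.1 and 18.5 per Mb unstimulated and 23.7, 25.6, 26.7 and 25.6 with IFNα (log2 0.32 ± 0.13, adjusted p = 0.359). TGF-β1 lowered it to 16.0, 17.2, 11.7 and 13.7 per Mb (-0.47 ± 0.13, adjusted p = 0.0226), a call lost without unstimulated replicate 3 or TGF-β1 replicates 3 or 4 (0.0702 to 0.166) and with loess offsets (-0.32, adjusted p = 0.214). A coding exon 1586 bases past the start (chr11:614114-614614) had 1.22 ± 0.481 per Mb unstimulated and 3.18 ± 0.901 with IFNα, which did not pass the threshold (1.11 ± 0.34, adjusted p = 0.0889).

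IRF2, the antagonist of IRF1, showed the strongest IL-13 change of the family. At chr4:184547311-184547811, centred at -73011 bases from the start and outside annotated genes, unstimulated libraries had 2.03, 1.6, 1.07 and 2.02 per Mb and IL-13 libraries 21.6, 23.2, 21.9 and 24.2. The ratio of means was 13.5 and the log2 change 3.44 ± 0.32 (adjusted p = 4.94e-18). IL-13 was above each of the other 9 cytokines in direct comparisons, and the call held in all 21 alternative fits. The peak holds the STAT6-spaced match shown above, as do 14.4% of all tested peaks and 12.2% of the IRF peaks.

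The same peak was the 1 IRF peak called with IL-6, and that call rested on a single library. The IL-6 libraries measured 3.16, 3.11, 3.13 and 28.5 per Mb, the last being the library labelled IL-6 replicate 4, whose level was above all 4 IL-13 libraries. With it the log2 change was 1.51 ± 0.32 (adjusted p = 0.0126), and without it 0.76 (adjusted p = 0.856). The call was also lost without unstimulated replicate 3 (adjusted p = 0.1). IL-6 and IL-13 differed at this peak alone among the IRF peaks, against 0.259% of all tested peaks, and the call stayed without the library labelled IL-6 replicate 4.

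**Figure D4:**
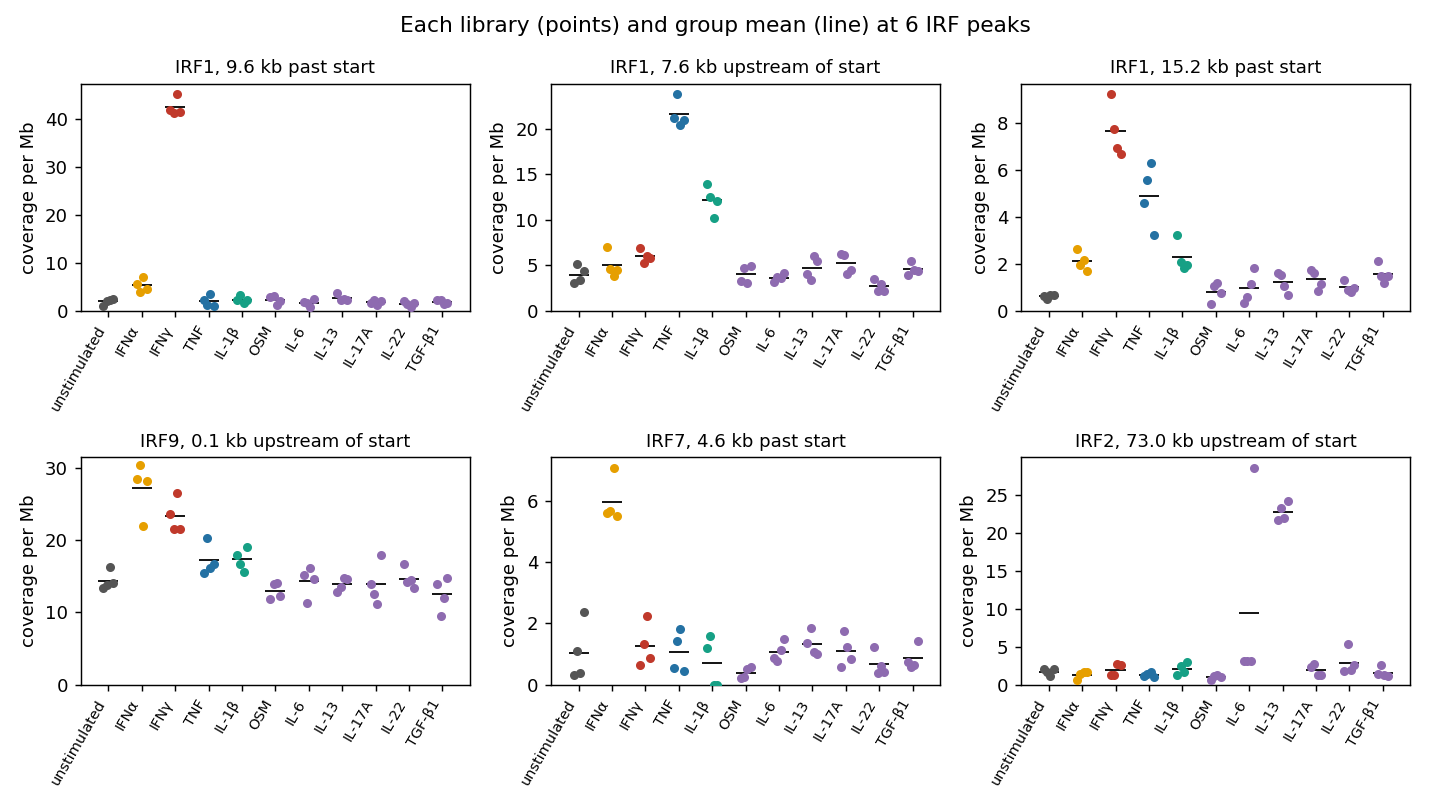
Coverage per Mb in every library (points) and group means (lines) at 6 IRF peaks, on axes that start at 0. The panels show IFNγ high at the IRF1 peak past the gene end, TNF and IL-1β high upstream of IRF1, both kinds of response at the third IRF1 peak, IFNα and IFNγ high at IRF9, IFNα high at IRF7, and IL-13 together with a single IL-6 library high upstream of IRF2.

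IFNγ raised 3 IRF2 peaks. At 25537 bases past the start, over an untranslated exon (chr4:184448763-184449263), the libraries went from 4.03, 3.97, 5.43 and 4.6 per Mb to 12.8, 19.4, 17.9 and 18.5 (log2 1.81 ± 0.22, adjusted p = 2.43e-11), with no overlap. IFNα gave 6.37 ± 0.849 per Mb (0.46 ± 0.22, adjusted p = 0.492), and IFNγ exceeded it by 1.36 ± 0.22 (adjusted p = 5.52e-06). This peak holds 2 ISRE matches, printed here with 10 bases on either side. It also holds a GAS match (184448790-184448798), which the first window cuts and leaves in lower case.
IRF2 exon, first ISRE, chr4:184448792-184448821: cccagaatagTTTCATTTTCgatcatgaca
IRF2 exon, second ISRE, chr4:184449050-184449079: actgagaacaGAAACCGAAAccaggggtga

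At chr4:184534359-184534859, centred at -60059 bases from the start in an intron of LINC02427, values went from 1.42, 1.51, 2.13 and 0.587 per Mb to 7.77, 7.29, 6.87 and 5.97 with IFNγ (log2 2.03 ± 0.34, adjusted p = 3.51e-06). The IFNα libraries had 4.37, 3.57, 1.2 and 2.29 per Mb (0.77 ± 0.34, adjusted p = 0.412), below IFNγ in the direct comparison (adjusted p = 0.0307). The peak over the IRF2 start (chr4:184474424-184474924) had 16.3, 15.9, 19.1 and 17.9 per Mb unstimulated and 30.2, 23.0, 24.0 and 23.9 with IFNγ (0.53 ± 0.14, adjusted p = 0.0203). TGF-β1 gave 13.6, 13.0, 14.1 and 8.45 per Mb (-0.50 ± 0.14, adjusted p = 0.0249). Neither group overlapped the unstimulated libraries, but both calls were sensitive to single libraries and to scaling. The IFNγ call was lost without unstimulated replicate 1 or 2 or IFNγ replicate 1 (0.0777 to 0.177), and the TGF-β1 call without unstimulated replicate 3 or 4 or TGF-β1 replicate 4 (0.0629 to 0.275) and with loess offsets (-0.36, adjusted p = 0.181). With the composition factor over all peaks the IFNγ call was lost as well (0.0568). The peak 461 bases into the gene (chr4:184473839-184474339) was not called, with 3.13 ± 0.768 per Mb unstimulated and 5.32 ± 0.487 with IFNγ (0.70 ± 0.28, adjusted p = 0.281).

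Inside IRF2, 3 intronic peaks moved with other cytokines, each near the threshold or at low coverage. TNF raised chr4:184453318-184453818 from 5.88 ± 1.58 to 9.56 ± 1.73 per Mb (log2 0.67 ± 0.21, adjusted p = 0.0334), with groups that overlapped, and the call was lost without unstimulated replicates 2, 3 or 4 or TNF replicates 1 or 2 (0.0953 to 0.177). IL-1β lowered chr4:184449992-184450492 from 3.06 ± 1.79 to 1.43 ± 1.36 per Mb (-1.07 ± 0.32, adjusted p = 0.029), again with overlap, and the call was lost without unstimulated replicates 1 or 2 or IL-1β replicates 3 or 4 (0.165 to 0.405). The third, chr4:184444511-184445011, was faint at 0.43 ± 0.305 per Mb unstimulated. It had 2.57 ± 1.5 per Mb with TGF-β1 (1.64 ± 0.39, adjusted p = 0.00327, and 0.055 without TGF-β1 replicate 3) and 1.84 ± 0.915 with TNF (1.29 ± 0.39, adjusted p = 0.0323). The TNF call was lost without unstimulated or TNF replicates 2, 3 or 4 (0.0502 to 0.152).

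IRF8, a regulator of myeloid cells, was little open in these fibroblasts, with 4 of its 31 peaks at a mean of 1 per Mb or more. IFNγ raised 3 of the 31 peaks, of which 2 are described here. The clearest was chr16:85888774-85889274, centred at -10138 bases from the start, which went from 3.21, 1.7, 1.58 and 2.64 per Mb to 6.11, 9.05, 9.06 and 6.27 (log2 1.57 ± 0.30, adjusted p = 0.000119). The groups did not overlap and the call held in all 21 alternative fits. IFNα gave 3.73 ± 0.655 per Mb (0.63 ± 0.30, adjusted p = 0.484) and did not differ from IFNγ past the threshold (adjusted p = 0.124). A fainter one was chr16:85862746-85863246, where all 4 unstimulated libraries were at or under 3 reads and IFNγ gave 2.85, 1.86, 0.509 and 0.594 per Mb (1.49 ± 0.39, adjusted p = 0.0118). That call was lost without unstimulated replicates 1 or 3 or IFNγ replicates 1 or 2 (0.0571 to 0.175). A peak 3643 bases past the RefSeq start (chr16:85902555-85903055) had 0.499 ± 0.153 per Mb unstimulated and 0.908 ± 0.392 with IFNγ and was not called.

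IRF4, a lymphocyte factor, had no peak raised by any cytokine and 3 lowered, all downstream of the gene. At chr6:422668-423168 IL-13 libraries had 10.1, 4.71, 10.1 and 10.2 per Mb where unstimulated ones had 11.0, 15.0, 15.1 and 15.1 (log2 -0.70 ± 0.17, adjusted p = 0.00545). Without IL-13 replicate 2 the change was -0.44 and was not called (adjusted p = 0.276). OSM lowered chr6:453045-453545 from 4.6 ± 1.29 to 2.14 ± 0.64 per Mb (-0.94 ± 0.28, adjusted p = 0.0349), a call lost without unstimulated replicates 1, 3 or 4 or OSM replicates 2, 3 or 4 (0.0524 to 0.148). The call was also lost with the composition factor over all peaks (-0.76, adjusted p = 0.0945) and after GC centring (-0.68, 0.188), alone or with the replicate block (-0.68, 0.181). TGF-β1 lowered chr6:489177-489677, in an intron of EXOC2, from 2.1 ± 0.496 to 0.633 ± 0.369 per Mb (-1.24 ± 0.36, adjusted p = 0.0255), lost without unstimulated replicate 1 or 4 or TGF-β1 replicate 1 or 3 (0.0679 to 0.123). The start of IRF4 (chr6:391507-392007) had 1.45 ± 0.811 per Mb unstimulated, 1.13 ± 0.496 with IFNα and 1.52 ± 0.483 with IFNγ and was not called.

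IRF5, which acts below Toll-like receptors, had 2 called peaks, both in introns of the neighbouring gene TNPO3. At chr7:128995793-128996293 the unstimulated libraries had 0.0, 0.0, 0.0 and 0.617 per Mb and the TGF-β1 libraries 2.51, 2.23, 1.49 and 3.81 (log2 2.25 ± 0.40, adjusted p = 1.45e-05), which held in all 20 alternative fits that kept this peak. In direct comparisons TGF-β1 did not differ past the threshold from TNF (adjusted p = 0.223), IL-1β (0.125) or IL-22 (0.08). It was above IL-6, IL-13, IL-17A, IFNα, IFNγ and OSM (0.000321 to 0.0373). TNF gave 1.12, 1.62, 0.975 and 0.717 per Mb (1.37 ± 0.40, adjusted p = 0.0227), lost without unstimulated replicates 1, 2 or 3 or TNF replicates 1 or 2 (0.0564 to 0.11). OSM lowered chr7:128963354-128963854 from 1.46 ± 0.529 to 0.338 ± 0.15 per Mb (-1.20 ± 0.37, adjusted p = 0.0471), a call lost in 12 of 21 alternative fits, including all those without 1 library except the fit without unstimulated replicate 3 (0.0678 to 0.166). The peak nearest the IRF5 start (chr7:128937683-128938183) had 2.08 ± 0.668 per Mb unstimulated, 1.67 ± 1.33 with IFNα and 1.58 ± 0.6 with IFNγ and was not called.

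IRF3, which is made constitutively and activated by phosphorylation, had 1 peak, over its start (chr19:49665779-49666279) and over an untranslated exon of the divergent gene BCL2L12. It was open in all groups, with 18.4, 18.6, 19.5 and 17.1 per Mb unstimulated, 17.8, 18.2, 17.6 and 15.7 with IFNα and 19.7, 19.7, 22.6 and 16.2 with IFNγ. The log2 changes of -0.09 ± 0.14 (adjusted p = 0.918) and 0.08 ± 0.14 (adjusted p = 0.936) did not pass the threshold, and group means over all cytokines stayed between 15.7 and 19.8 per Mb.

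Genes around the IRFs were read at the peak nearest each start. JAK1, a kinase bound to the interferon receptors, rose by 0.62 ± 0.17 with IFNγ (adjusted p = 0.0172). The 4 interferon receptor genes (IFNAR1, IFNAR2, IFNGR1 and IFNGR2) were not called with any cytokine. Of 15 sensors and adaptors that feed IRF3, IRF5 and IRF7, IFNγ raised TLR3 (1.18 ± 0.28, adjusted p = 0.00432) and the RNA sensor IFIH1 (1.29 ± 0.21, adjusted p = 1.16e-06). IFNα raised RIGI, another RNA sensor (2.28 ± 0.34, adjusted p = 3.89e-07), and TNF raised TRAF3 (1.46 ± 0.35) and TICAM1 (0.76 ± 0.22).

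Of 22 measured interferon target genes, IFNγ raised 15 and IFNα 12, with median changes of 1.00 and 0.63, where the medians over all tested peaks were -0.01 and 0.01. BST2 rose by 3.68 ± 0.32 with IFNα and 3.41 ± 0.32 with IFNγ, and the antiviral GTPase gene MX1 by 2.64 ± 0.24 and 1.38 ± 0.24. IDO1, a tryptophan-degrading enzyme, rose by 3.29 ± 0.36 with IFNγ. CXCL10, a T cell attractant, rose with IFNα (3.04 ± 0.32), TNF (2.85 ± 0.32), IFNγ (2.48 ± 0.32) and IL-1β (1.73 ± 0.32). Of 8 partners and corepressors of IRFs, IFNγ raised BATF2 (1.24 ± 0.17) and IRF2BPL (0.41 ± 0.12), and IFNα raised BATF2 (1.11 ± 0.17). TGF-β1 lowered BATF2 (-0.65 ± 0.17, adjusted p = 0.0129), as it did the starts of STAT2, MYD88, PSMB9 and NLRC5 in these lists. All of these calls are limma adjusted p under 0.05 over all tested peaks. Calls at the genes around the IRFs, in this paragraph and the one before, were not examined in the alternative fits. Whether they hold with other scalings or without single libraries was not tested.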

How the data were processed

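Bulk ATAC-seq of Ccd18-Co fibroblasts was deposited as 1 table of coverage signal over 407383 peaks in 44 libraries. The authors used the ENCODE ATAC-seq pipeline with hg38, and the submitters' processing notes name MACS2. The deposited signal is summed base coverage per peak, not a read count. The study's methods describe consensus peaks annotated with ChIPseeker for a smaller set of bulk libraries. Whether this table's 500-base peaks and gene labels were made that way is not given in the sources used here. The most frequent low value, 75, was taken as the length of 1 read, and levels of 3 reads cover counting error only.

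Coverage was divided by library totals (Mb) and by a trimmed composition factor over the 148332 peaks covered in every library, log2-transformed with 0.5 added, and fitted with limma 3.58.1 (R 4.3.3, eBayes with trend, Benjamini-Hochberg) on all 11 groups. The 207 peaks with a log2 mean coverage of -3 or lower were left out. The study's own count test was not used because the values are not counts. The code was tested on simulated data. Named peaks were those nearest a start within 1 kb, the largest called rise and fall per gene and cytokine with a mean of at least 1 per Mb, and those called with 4 or more cytokines. A further 8 peaks were chosen after their values were seen (IRF1 at 132459037, 132490727 and 132496858, IRF2 at 184444511 and 184448763, IRF5 at 128995793, IRF7 at 610171 and IRF8 at 85862746). Members and gene lists were chosen with earlier results of these data known. Replicate numbers were not used to pair the libraries in the main fit, and the labels do not say whether they mark a shared culture. Peak coordinates are as deposited, sequence windows count from 1 in hg38, motif searches used both strands, and RefSeq starts are from GRCh38.p14 with GENCODE 44 for features. Alternatives covered scaling, pseudocount, low filter, quality weights, GC centring, replicate block, the groups fitted and each library left out. A gene of the pathway lists and a peak with its sequence are not reported here.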

Additional observations from a re-analysis of the deposited data

Results flagged for a closer look

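In groups of 4 libraries, 81 were examined for a highest or lowest library far from the other 3, and 9 stood out, where chance alone gives about 1 in 20. At the peak over the IRF2 start, IFNγ replicate 1 had 30.2 per Mb against 23.0 to 24.0 in the other 3, and TGF-β1 replicate 4 had 8.45 against 13.0 to 14.1. Upstream of IRF2, the library labelled IL-6 replicate 4 had 28.5 per Mb against 3.11 to 3.16. At the IRF1 peak at chr5:132470510-132471010, unstimulated replicate 4 had 2.47 against 1.06 to 1.19, and at chr5:132496858-132497358 IFNγ replicate 1 had 32.1 against 27.5 to 28.2. Downstream of IRF4, unstimulated replicate 1 had 11.0 against 15.0 to 15.1 and IL-13 replicate 2 had 4.71 against 10.1 to 10.2. At the IRF5 peak at chr7:128995793-128996293, unstimulated replicate 4 had 0.617 where the other 3 were at 0.0. At the IRF7 peak at chr11:611113-611613, IFNα replicate 3 had 7.07 against 5.52 to 5.68. The causes were not tested.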

How the results depend on the processing

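Across the alternatives 242 of the counts stayed within 1.5 times the main count, 6 were higher and 22 lower. For single named peaks, 1200 comparisons stayed on the same side of the threshold, 136 lost the call, 1 gained it and 0 reversed direction. With a pseudocount of 0.1 per Mb the IFNα calls at IRF7 610171 (limma adjusted p 0.114) and IRF1 132478191 (0.0574) were lost. So was the TNF call at IRF2 184444511 (0.116). With 2 per Mb the IL-1β call at IRF2 184449992 (0.0881) and the TNF call at IRF5 128995793 (0.0598) were lost. OSM called 4 IRF peaks, and 2 with a pseudocount of 2 per Mb, 8 with quality weights, 8 with GC centring, 8 with the replicate block and GC centring together, 8 in a fit of only the groups compared, and 8 with a composition factor over all peaks, a setting chosen after seeing the data. IL-6 called 1 peak, and 0 with a pseudocount of 0.1 per Mb or with quality weights. Leaving out 1 library at a time gave 3 to 7 called IRF peaks for IL-1β, 0 to 2 for IL-6, 2 to 3 for IL-13, 5 to 7 for IFNα, 36 to 39 for IFNγ, 4 to 6 for TGF-β1, 4 to 6 for TNF, 0 to 3 for OSM and 0 for IL-17A and IL-22. The direct comparisons gave 25 to 27 for the 2 interferons, 1 to 3 for IL-1β against TNF and 1 for IL-6 against IL-13. The causes were not tested beyond the smaller number of libraries.

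Deviations of same-numbered cytokine and unstimulated libraries had r from -0.015 to 0.032 over 40 pairs, across 20000 sampled peaks. Counting noise at faint peaks lowers such values, and differently numbered libraries were not compared, so the check cannot show whether replicates were paired. With the replicate block IFNγ called 41 IRF peaks, IFNα 9 and OSM 4, as without it. Depth limits the faint peaks most, since 3 reads correspond to up to 1.52 per Mb in the shallowest library.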
